A study of Mus musculus with 12 samples.

Results

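Hyaluronan turnover and versican were followed through 9 genes in sorted dermal papilla (DP) cells of mice: the hyaluronan synthases Has1, Has2 and Has3, the hyaluronan-degrading proteins Cemip, Tmem2, Hyal1 and Hyal2, the hyaluronan receptor Cd44 and the hyaluronan-binding proteoglycan Vcan (versican). The genes were taken by symbol, and all 9 were found among the 15557 genes of the count tables. The list was drawn up with results of these data known, and which values entered the choice is not recorded. Cemip was treated as chosen by its genotype difference in expression at postnatal day 16 (P16), with the other genes grouped by function, so the P16 genotype differences of the 9 genes are given as descriptions without a p, and counts of calls there are given only beside those over all genes. The DP is the mesenchymal cell cluster at the base of the hair follicle, and the growth phase of the follicle is called anagen.

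The libraries came from 3 mice in each of 4 groups: control and dMF1/2 mice at P14, and control and dMF1/2 mice at P16, all labelled as anagen. In dMF1/2 mice, the Cor-cre allele drives recombination of both floxed copies of Fgfr1 and of Fgfr2 in the DP (Cor-cre/+; Fgfr1 Flox/Flox; Fgfr2 Flox/Flox). The labels call the controls wild type, while the study's methods describe controls that carry either Cor-cre with 1 floxed copy of each receptor or both floxed receptors without Cre. Since the cells of every group were sorted for a Cre-dependent YFP reporter, Cre activity and sorting were common to all 12 libraries. Of the control genotypes described, only that with Cor-cre can yield such cells, so the sequenced controls would carry 1 floxed copy of each receptor. The sort selected for cells in which Cor-cre had acted, and its purity was not measured here.

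Hyaluronan is a long unsulphated sugar chain that is made at the plasma membrane by the Has enzymes and passed directly into the extracellular space. There it is bound by receptors such as CD44 and by versican, whose core protein joins hyaluronan to other matrix proteins, and it is cut into fragments by secreted, membrane-bound and lysosomal enzymes. Versican is a well-known component of the DP matrix in growing follicles.

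The libraries held between 19302358 and 29860750 reads assigned to the genes of the count tables. Fgfr1 was between 7745 and 9981 normalized reads in P14 control mice and between 6391 and 7405 in P14 dMF1/2 mice, and between 8512 and 12517 against 6226 to 8015 at P16, whereas Fgfr2 overlapped between genotypes on both days (4483 to 4940 against 3669 to 5190 at P14 and 4763 to 5356 against 4113 to 5575 at P16). These counts cover whole genes, so reads from the recombined exons could not be separated. All 11 listed DP marker genes were detected, and their summed level was lower in P16 control mice (36645 to 67921 scaled reads) than in the other groups (78132 to 138746). Of these 11 genes, 8 were lower in every P16 control library than in all other libraries, and Crabp1, Sox18 and Trps1 were not. Trps1 was at 9095 to 11392 scaled reads in P16 control and 7549 to 8100 in P14 control mice, and Crabp1 at 4843 to 5391 in P16 control and 2573 to 3794 in P16 dMF1/2 mice. The 8 dermal fibroblast markers summed to between 117898 and 243458 scaled reads and the 6 markers of dermal sheath and smooth muscle to between 12401 and 40155, whereas the 10 keratinocyte markers did not exceed 746 scaled reads. The 6 melanocyte markers reached at most 92.1 and the 5 endothelial markers at most 1034. Of the immune, skeletal muscle and adipocyte lists, 4 of 6, 3 of 5 and 2 of 4 genes were in both tables, with sums from 62.3 to 353, from 84.3 to 413 and from 4567 to 8198 scaled reads, while Adipoq and Cidec, Myod1 and Myog, and Cd3e were among the genes in neither table. In bulk RNA, fewer cells of a type and less RNA per cell cannot be told apart, and the part of these markers in the results below was not tested. The control and dMF1/2 libraries numbered 1 at P14 stood apart, since Col1a1, Col1a2 and Col3a1 took 17.7% and 21.0% of their reads, against 27.2% to 36.1% in the other 10 libraries.

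The sequence just upstream of the start site is shown for Cemip, Has1 and Cd44, the 3 genes whose P16 dMF1/2 libraries all lay below the P16 control libraries. The sequences are those of RefSeq on GRCm38.p6, read 5′ to 3′ on the strand of the gene, and 6 of the 9 genes had an entry. The windows lie at chr7:84086506-84086755 for Cemip, chr17:17855206-17855438 for Has1 and chr2:102901666-102901915 for Cd44, all on the minus strand. For Has1, the 17 bases nearest to the RefSeq start were left out because the GENCODE annotation places them in the transcript.
Cemip: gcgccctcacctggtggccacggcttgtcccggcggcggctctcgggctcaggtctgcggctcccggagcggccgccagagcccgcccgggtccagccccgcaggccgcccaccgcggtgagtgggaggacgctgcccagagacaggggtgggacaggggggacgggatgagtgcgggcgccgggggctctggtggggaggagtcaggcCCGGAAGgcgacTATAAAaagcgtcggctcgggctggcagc
Has1: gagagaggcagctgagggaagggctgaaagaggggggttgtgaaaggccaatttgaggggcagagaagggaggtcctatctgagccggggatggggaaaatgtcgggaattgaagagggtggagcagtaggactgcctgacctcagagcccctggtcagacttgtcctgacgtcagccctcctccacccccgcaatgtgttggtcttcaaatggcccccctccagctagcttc
Cd44: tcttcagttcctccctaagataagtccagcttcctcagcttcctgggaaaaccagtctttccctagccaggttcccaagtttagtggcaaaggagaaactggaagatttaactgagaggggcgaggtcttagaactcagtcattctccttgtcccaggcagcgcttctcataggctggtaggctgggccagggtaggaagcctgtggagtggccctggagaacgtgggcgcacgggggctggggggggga
Capitals mark matches to 4 motifs searched on both strands of the 250 bases before each start: CTTTGA (the core bound by TCF/LEF factors of the Wnt pathway), CCGGAAG (ETS factors), TGANTCA (AP-1) and TATAAA (the TATA box). The Cemip window held CCGGAAG from 41 to 35 bases upstream and TATAAA from 29 to 24 bases upstream. The other 5 windows, those of Has1, Cd44, Vcan, Hyal1 and Hyal2, held none of these letters. By the GENCODE annotation, the whole Hyal2 window and the 23 bases nearest to the Hyal1 start lie within those genes. The Hyal2 window is therefore not a search upstream of the annotated gene. Among 32851 mouse promoter windows of the same length, 6.91% held CCGGAAG, 12.4% TATAAA, 13.8% CTTTGA and 6.75% TGANTCA. G and C made up 75.2% of the Cemip window, 58.0% of the Has1 window and 56.4% of the Cd44 window.

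To compare expression levels between genes, reads were scaled jointly over the 12 libraries and divided by the length of the exons in kilobases (kb). Vcan had the highest level of the 9 genes in 10 of 12 libraries, with a mean of 1223 scaled reads per kb and a range from 915 to 1825. Has1 was next with a mean of 850.5 (422 to 1574) and was higher than Vcan in 2 P16 control libraries. Cd44 and Tmem2 had mean levels of 335 and 303 scaled reads per kb, and their order was not stable, as Cd44 was higher in 7 of 12 libraries. The level of Has2 was 177 on average, that of Hyal2 67.1, that of Hyal1 20.0 and that of Has3 6.61 scaled reads per kb, and the orders Has1 above Has2, Has2 above Has3 and Hyal2 above Hyal1 held in all 12 libraries. Cemip had no fixed place in this order, since it ranged from 0.488 to 139 scaled reads per kb. Of the summed level of the 3 synthases, Has1 accounted for between 71.5% and 88.2% in every library.

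**Figure D1:**
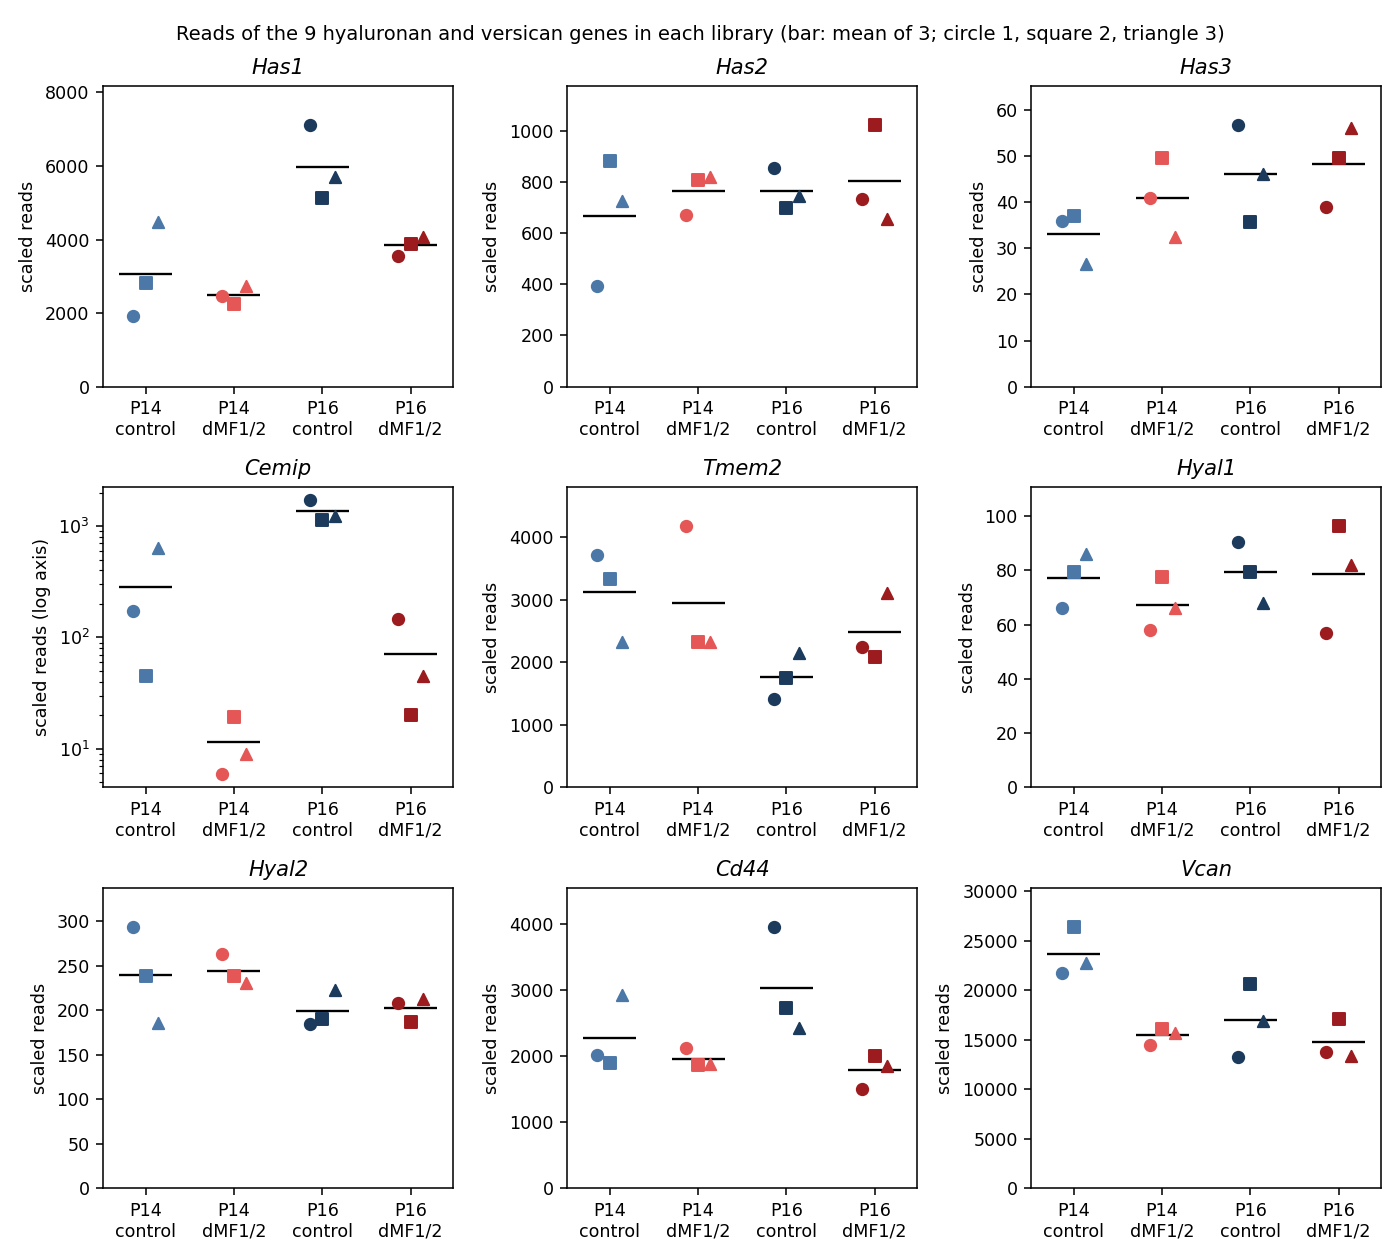
Jointly scaled reads (vertical axes, linear except for Cemip, which has a log axis) of the 9 genes in the 4 groups of 3 libraries, where each point is a library, its shape is the replicate number and the bar is the group mean. Cemip runs from 6.0 to 1700 scaled reads, Has1 is at 5119 or more in all P16 control libraries, and Vcan is at 21707 or more in all P14 control libraries and at most 17132 in all dMF1/2 libraries.

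The genotypes were then compared at P14, in other libraries than those of P16. Whether P14 values also played a part in choosing the genes is not recorded, so the P14 tests cannot be taken as independent of the choice. Vcan and Cemip were the 2 members whose dMF1/2 libraries all lay below the control libraries, and no member lay above without overlap. Of 13334 genes tested, 6.32% were lower in dMF1/2 mice without overlap and 6.33% were higher. No member passed an adjusted p of 0.05 in limma's test, which called 7 genes in all (0.0525%), and 2 members had an unadjusted p below 0.05. DESeq2 called Cemip and Vcan among 207 genes (1.55%), and edgeR called 0 members. The median log2 difference of the 9 genes was -0.19, beside 0.00 for all tested genes.

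Vcan (chromosome 13, 89655312 to 89742509 on mm10, minus strand) had 21433, 26026 and 22459 normalized reads in the P14 control libraries 1, 2 and 3, and 14313, 15964 and 15575 in the P14 dMF1/2 libraries. The groups did not overlap, and the 3 control values were 1.50, 1.63 and 1.44 times those of the dMF1/2 library with the same number. The control mean of 23306 ± 2411 (SD, n = 3) compared with 15284 ± 863 in dMF1/2 mice, which gave a log2 difference of -0.61 (standard error 0.13). The adjusted p was 0.273 in limma's test over all genes and 0.0223 in the limma fit with the replicate number as a block, which called 224 genes (1.68%). The same-numbered libraries of the 2 genotypes deviated together at each day, so both fits are given. With both libraries numbered 1 left out, the log2 difference of Vcan was -0.62.

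Cemip (chromosome 7, 83932857 to 84086502, minus strand), a secreted hyaluronan-binding protein that is required in many cells to break down extracellular hyaluronan, was at 171, 44.0 and 629 normalized reads in P14 control mice and at 5.88, 19.2 and 8.89 in P14 dMF1/2 mice. All 3 dMF1/2 libraries were lower than all controls, but the highest control was 14.3 times the lowest. The dMF1/2 values rest on 7, 18 and 8 reads. The control mean was 281 ± 308 and the dMF1/2 mean 11.3 ± 6.99, with a log2 difference of -3.93 (standard error 0.91, limma adjusted p = 0.295). With the replicate block, the limma adjusted p was 0.0639, and leaving out 1 library at a time moved the log2 difference between -4.89 (control library 2 left out) and -2.99 (control library 3 left out).

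For the other 7 genes, the control and dMF1/2 libraries overlapped at P14. Their limma adjusted p-values were at least 0.926, and at least 0.534 with the replicate block. Has1 was at 1883, 2785 and 4413 normalized reads in control and at 2442, 2221 and 2707 in dMF1/2 mice, so that the dMF1/2 libraries fell within the range of the controls (log2 difference -0.22, standard error 0.28). For Cd44, the controls were at 1990, 1870 and 2897 and the dMF1/2 libraries at 2090, 1847 and 1865 (-0.19, standard error 0.17). Tmem2, a transmembrane protein related to Cemip, had 3673, 3290 and 2286 normalized reads against 4119, 2303 and 2309 (-0.11, standard error 0.27). In both genotypes, the library numbered 1 was the highest for Tmem2. The log2 differences of Has2, Has3, Hyal1 and Hyal2 were 0.28, 0.29, -0.19 and 0.05, with standard errors of 0.28, 0.26, 0.19 and 0.18.

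**Figure D2:**
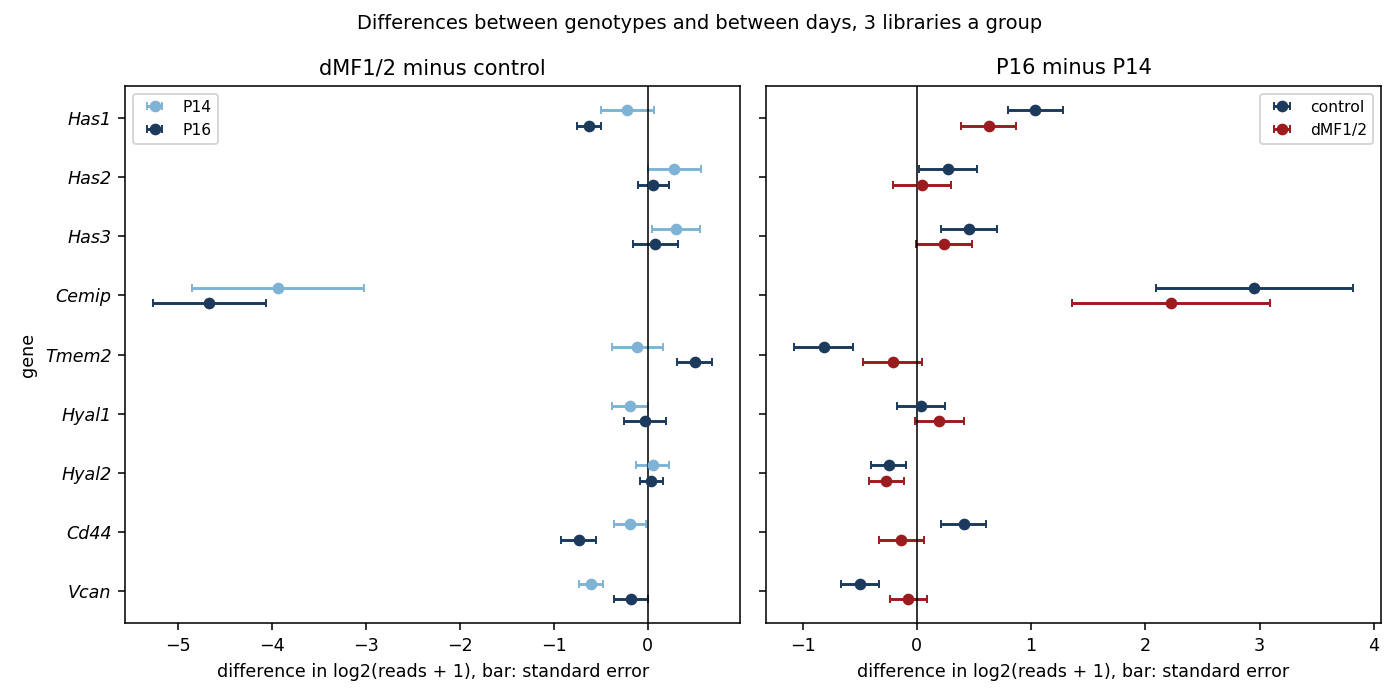
Differences in log2(reads + 1) for the 9 genes between dMF1/2 and control mice at P14 and P16 (left) and between P16 and P14 in control and dMF1/2 mice (right), where points are limma estimates from 3 libraries a group and bars are standard errors. Cemip stands at -3.93 and -4.66 in the left panel, Vcan at -0.61 at P14 and -0.18 at P16, and Has1 at 1.04 in control mice in the right panel.

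At P16, 3 of the 9 genes, Cemip, Has1 and Cd44, were lower in all dMF1/2 libraries than in all control libraries, and none was higher without overlap. Over all 13457 genes tested, 11.6% were lower without overlap and 12.9% were higher. Cemip and Has1 were among the 288 genes called lower by limma (2.14% of the genes tested, beside 2.18% called higher). The replicate block, which called 10.4% of all genes, added Tmem2, higher in dMF1/2 mice, to these 2 genes, and DESeq2, which called 8.35%, added Cd44, lower. The limma call of Has1 was lost in the fit of all 12 libraries and when any P16 library other than control replicate 2 was left out, whereas Cemip was called in each of these fits. As this contrast was treated as the one used for the choice, nothing is read from these counts.

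Cemip had 1725, 1154 and 1238 normalized reads in P16 control mice and 151, 20.5 and 45.5 in P16 dMF1/2 mice. The lowest control library was 7.63 times the highest dMF1/2 library. The means were 1372 ± 308 for control and 72.4 ± 69.4 for dMF1/2, and the log2 difference was -4.66 (standard error 0.60). Leaving out 1 library at a time gave values from -5.42 (dMF1/2 library 1 left out) to -4.01 (dMF1/2 library 2 left out). The ratio of control to dMF1/2 was 11.4, 56.2 and 27.2 in the pairs of libraries numbered 1, 2 and 3.

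Has1 (chromosome 17, 17843328 to 17855188, minus strand), 1 of the 3 enzymes that make hyaluronan, was at 7217, 5207 and 5783 normalized reads in P16 control mice and at 3642, 3944 and 4151 in P16 dMF1/2 mice. The groups were separate, with a mean of 6069 ± 1035 against 3912 ± 256 and a log2 difference of -0.62 (standard error 0.13). Cd44 (chromosome 2, 102811141 to 102901665, minus strand), the main cell surface receptor for hyaluronan, was at 4022, 2774 and 2462 against 1543, 2035 and 1888, a log2 difference of -0.74 (standard error 0.19). Control library 1 had the highest value of Has1, Cd44 and Cemip among the P16 libraries. It also had the lowest summed DP markers of all 12 libraries (36645 scaled reads, beside 67921 and 62483 in the other P16 control libraries). Without it, the log2 differences of Has1 and Cd44 were -0.49 and -0.53.

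Tmem2 was the only member with a positive log2 difference above 0.1 at P16, with 1429, 1772 and 2167 normalized reads in control and 2290, 2125 and 3172 in dMF1/2 mice (0.50, standard error 0.19). The groups overlapped slightly, since 1 dMF1/2 library lay below the highest control, but dMF1/2 was higher than control in all 3 same-numbered pairs, as were 24.0% of all genes. Vcan had 13428, 21013 and 17135 normalized reads in control and 14024, 17424 and 13597 in dMF1/2 mice, and the groups overlapped (log2 difference -0.18, standard error 0.18). Has2 was between 708 and 864 in control and between 666 and 1039 in dMF1/2 mice, and Has3 between 36.3 and 57.6 and between 40.0 and 57.2. The hyaluronidases Hyal1, which acts in lysosomes, and Hyal2, which is anchored at the cell surface, overlapped as well: Hyal1 ranged from 68.9 to 91.7 in control mice and from 58.3 to 98.0 in dMF1/2 mice, and Hyal2 between 187 and 225 and between 189 and 217. Hyal1 and Hyal2 lie next to each other on chromosome 9 (107576927 to 107581710 and 107567945 to 107572779, plus strand) without overlap.

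**Figure D3:**
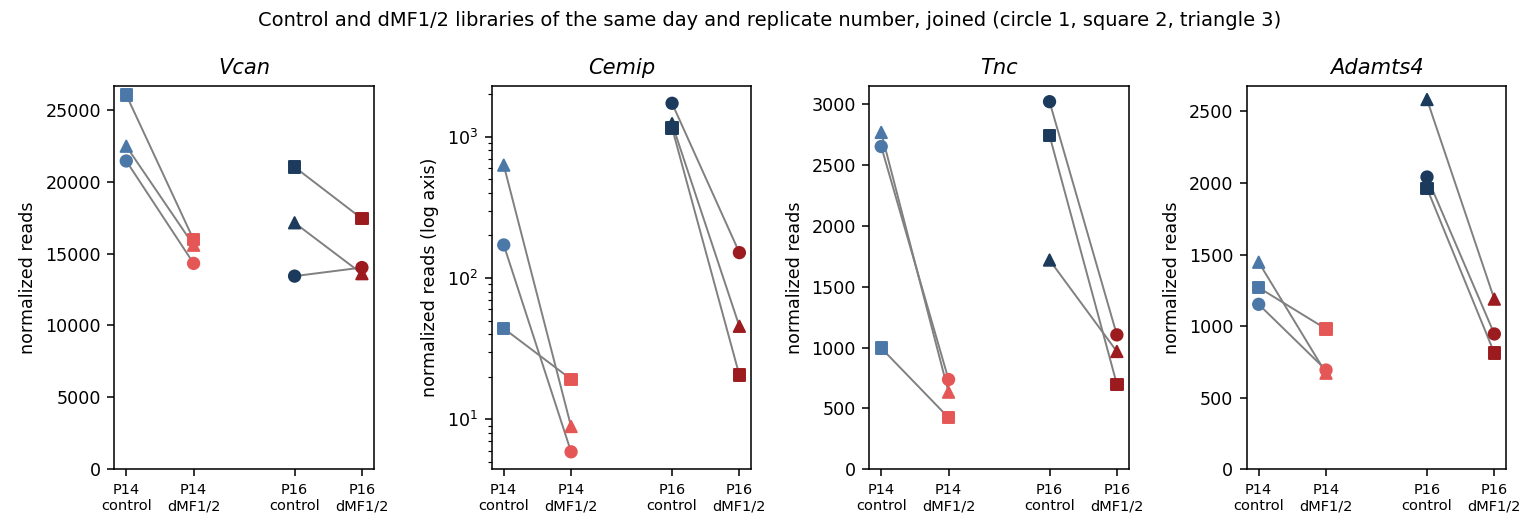
Normalized reads (vertical axes, with a log axis for Cemip) of Vcan, Cemip, Tnc and Adamts4 in control and dMF1/2 libraries at P14 and P16, where lines join libraries of the same day and replicate number. Vcan is lower in dMF1/2 mice in 3 of 3 pairs at P14 and in 2 of 3 pairs at P16, whereas the other 3 genes are lower in every pair on both days.

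The difference between the genotypes was also set side by side for the 2 days in the fit of all 12 libraries. The P16 log2 difference minus the P14 log2 difference was 0.42 for Vcan (standard error 0.23), 0.60 for Tmem2 (0.37), -0.55 for Cd44 (0.28), -0.41 for Has1 (0.34) and -0.73 for Cemip (1.22). That of Has1 was -0.11 without P14 control replicate 1 and -0.72 without P14 control replicate 3, and that of Cemip ranged from -1.68 (P14 control library 3 left out) to 0.23 (P14 control library 2 left out). Since these values contain the P16 contrast, no p is given for them. For all 13415 genes, limma called 0 (0.0%) in this comparison, with 648 genes at an unadjusted p below 0.05, edgeR called 0 and DESeq2 7. For Cemip the sign of this value depended on the model, as it was 0.40 in edgeR and 0.39 in DESeq2.

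Next, the change from P14 to P16 was measured within each genotype after joint scaling. These comparisons share the P16 libraries with the contrast treated as the basis of the choice, so no p is given for Cemip, and the p-values of the other members cannot be taken as independent of the choice. In control mice, Has1 alone of the other 8 members was called by limma, next to 14.5% of the 13415 genes tested. Cemip and Has1 were higher at P16 without overlap, as were 17.5% of all genes, and Tmem2 and Vcan were lower without overlap, as were 18.4%.

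Has1 rose in control mice from 3068 ± 1299 scaled reads at P14 to 5981 ± 1024 at P16, a log2 change of 1.04 (standard error 0.24, limma adjusted p = 0.018). The 3 P16 control libraries, at 7113, 5119 and 5712 scaled reads, were above the highest P14 control library, at 4471. The call was lost without P14 control replicate 2 (adjusted p = 0.0514 in limma), without P16 control replicate 1 (0.0727) and in a limma fit of only the 6 control libraries (0.0756). Cemip was at 285 ± 312 scaled reads at P14 and 1353 ± 304 at P16, and its log2 difference between days was 2.95 (standard error 0.86). This value was 2.0 without P14 control replicate 2 and 3.90 without P14 control replicate 3. Tmem2 was at 3124 ± 725 scaled reads at P14 and at 1764 ± 366 at P16, a log2 difference of -0.82 (standard error 0.26) with a limma adjusted p of 0.0555, which was 0.0497 with TMM scaling, 0.0677 with the replicate block and between 0.0315 (without P14 control replicate 3) and 0.184 (without P16 control replicate 1) when 1 library was left out. DESeq2 gave Tmem2 an adjusted p of 0.0178 and Vcan one of 0.0271. The log2 difference of Vcan was -0.50 (standard error 0.16), with 23620 ± 2461 scaled reads at P14 and 16940 ± 3713 at P16. Its limma adjusted p was 0.061 without and 0.0203 with the replicate block. When 1 library was left out, it was between 0.026 (without P16 control replicate 2) and 0.215 (without P16 control replicate 1). Same-numbered control libraries of P14 and P16 did not deviate together, with correlations of deviations from the group means of -0.05, -0.06 and -0.13. The replicate block therefore lacks the basis between days that it has within a day. Cd44, Has3, Has2, Hyal1 and Hyal2 differed between the days by log2 values from -0.25 to 0.46, with limma adjusted p-values of at least 0.177. The summed DP markers were lower in P16 than in P14 control libraries, and their part in these values was not tested.

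In dMF1/2 mice, limma called 0 of the 8 members tested apart from Cemip (DESeq2 and edgeR 0 as well), of which Has1 alone had an unadjusted p below 0.05. Of all genes tested, 5.8% were called. Has1 was at 2484 ± 246 scaled reads at P14 and at 3837 ± 259 at P16, a log2 difference of 0.63 (standard error 0.24, limma adjusted p = 0.142). The 3 P16 libraries lay above the 3 P14 libraries, as for 13.2% of all genes, and in a limma fit of only the 6 dMF1/2 libraries the adjusted p was 0.0261. Cemip had 5.97, 19.4 and 8.97 scaled reads at P14 and 148, 20.2 and 44.7 at P16, a log2 difference of 2.22 (standard error 0.86), and leaving out 1 library gave values from 1.47 (P16 library 1 left out) to 2.88 (P16 library 2 left out). Its 3 P16 dMF1/2 libraries were above the 3 P14 dMF1/2 libraries, but the second P16 library exceeded the highest P14 library by less than 1 scaled read. The days overlapped for Vcan, with 15451 ± 833 and 14728 ± 2090 scaled reads (-0.08, standard error 0.16), and for Tmem2, with 2945 ± 1068 and 2480 ± 553 (-0.21, standard error 0.26). Hyal2 was lower at P16 without overlap, as were 14.4% of all genes, with a log2 difference of -0.27 (limma adjusted p = 0.334).

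The balance between the related proteins Cemip and Tmem2 was described from their levels per kb. Cemip made up 3.15%, 0.922% and 16.1% of the summed level of both in the P14 control libraries and 45.7%, 31.2% and 28.5% in the P16 control libraries. In dMF1/2 mice the share was 0.0994%, 0.577% and 0.272% at P14 and 4.40%, 0.668% and 0.989% at P16. Thus Tmem2 had the higher level in all 12 libraries. The summed level of both was between 247 and 491 scaled reads per kb in the 12 libraries, with group means of 390.0 ± 63.5 in P14 control, 347 ± 125 in P14 dMF1/2, 318 ± 29.3 in P16 control and 297 ± 64.0 in P16 dMF1/2 mice. The summed level of the 3 synthases had group means of 841 ± 322, 737 ± 58.3, 1512 ± 247 and 1046 ± 71.8 scaled reads per kb in the same order.

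The genes with the pattern most like that of Cemip over the 12 libraries, by Pearson correlation of log2 scaled reads, were Slc27a3 (0.98), Adgrg2 (0.98), Trpc4 (0.98), Nr4a2 (0.98) and Ptprg (0.97). The 12 libraries fall into 4 groups, so these values describe shared group differences as well as shared variation within groups. Mean scaled reads of Trpc4, a cation channel, were 120 in P14 control, 2.71 in P14 dMF1/2, 501 in P16 control and 21.4 in P16 dMF1/2 mice, and those of the nuclear receptor Nr4a2 were 509.7, 174, 819 and 255. The 5 genes most like Vcan were Actr1b (0.91), Frmd4b (0.90), the Wnt receptor Fzd1 (0.90), Lox (0.89) and Tmsb4x (0.87). Lox, an enzyme that cross-links collagen and elastin, had means of 35431, 21373, 22394 and 22309 in the same order of groups, and Fzd1 had 8273, 5725, 6131 and 6113. Within the list of 9, Has1 and Cd44 were the genes most like Cemip, with correlations of 0.73 and 0.69 over the 12 libraries. After the group means were removed, these correlations were 0.30 and 0.24.

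Other genes of hyaluronan and versican biology were examined in 8 lists with 71 genes in all. The lists were drawn up with earlier results of these data known. Their counts of calls and p-values, here and below, cannot be taken as independent of that choice. At P14, 57 of them were tested and limma called 0 (DESeq2 called 2, beside 1.55% of all genes, and edgeR 0), with 5 at an unadjusted p below 0.05. With the replicate block, limma called 4 of 57, beside 1.68% of all genes, all lower in dMF1/2 mice: Tnc, Adamts4, Chst7 and Hapln2. At P16, 6 of 59 were called by limma, 2 higher and 4 lower (10.2%, beside 4.32% of all genes). The replicate block raised this count to 10, beside 10.4% of all genes. The median log2 difference of the 59 genes was 0.00, as was that of all genes. Between P14 and P16 in control mice, limma called 12 of 58 tested genes of the lists, 7 higher and 5 lower (20.7%, beside 14.5% of all genes).

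Of the versican partners, 1 of 4 tested was called at P16, beside 4.32% of all genes. Tnc (tenascin C), a matrix glycoprotein that binds versican, fell from 2493 ± 685 normalized reads in control to 923 ± 206 in dMF1/2 mice, a log2 difference of -1.42 (standard error 0.23, limma adjusted p = 0.0178). The call was lost without dMF1/2 replicate 3 (adjusted p = 0.0671 in limma) and in the limma fit of all 12 libraries (0.0537). The control libraries had 3020, 2742 and 1719 normalized reads and the dMF1/2 libraries 1104, 699 and 967. At P14, Tnc was at 2651, 996 and 2767 in the controls, compared with 737, 424 and 633, again without overlap (-1.73, standard error 0.41). Its limma adjusted p at P14 was 0.301 without and 0.00351 with the replicate block.

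Of the 6 versican-cleaving proteases, limma called 1 higher and 1 lower at P16, beside 4.32% of all genes. Adamts4 fell from 2196 ± 338 normalized reads in control to 982 ± 191 in dMF1/2 mice (log2 -1.17, standard error 0.16, limma adjusted p = 0.0093), and Adamts9 rose from 1378 ± 143 to 2471 ± 393 (log2 0.84, standard error 0.13, limma adjusted p = 0.0138). At P14, Adamts4 had 1152, 1269 and 1446 normalized reads in the controls against 693, 980 and 671, with a log2 difference of -0.74 and a limma adjusted p of 0.282 without and 0.0481 with the replicate block. In control mice between P14 and P16, Adamts4 rose (log2 0.72, limma adjusted p = 0.0222) and Adamts9 fell (log2 -0.60, limma adjusted p = 0.0255).

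Of the 10 hyaluronan-binding matrix proteins tested at P16, 1 was called, beside 4.32% of all genes. Tnfaip6 (TSG-6), an enzyme that transfers protein chains onto hyaluronan, fell from 14005 ± 2066 normalized reads in control to 8855 ± 1021 in dMF1/2 mice (log2 -0.66, standard error 0.14, limma adjusted p = 0.0382), and the call was lost when any library other than control replicate 2 was left out (limma adjusted p from 0.0788 to 0.12) and in the fit of all 12 libraries (0.122). The link protein Hapln1, named after its values were seen, was at 248, 68.4 and 97.3 in the controls against 45.4, 25.2 and 15.9, with a limma adjusted p of 0.0606 without and 0.00502 with the replicate block. In control mice between P14 and P16, 3 of 9 tested hyaluronan-binding proteins were called by limma, beside 14.5% of all genes. Hapln1 and Tnfaip6 rose by log2 values of 2.63 and 1.02 (limma adjusted p = 0.010 and 0.0136), and Itih5 fell (log2 -0.58, limma adjusted p = 0.0489).

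Of 20 tested enzymes that build or modify the chondroitin and dermatan sulfate chains carried by versican, 1 rose and 1 fell at P16. With the replicate block, limma called 3 higher and 2 lower. Over all genes, limma called 4.32% without and 10.4% with the block at P16. The 3 genes added by the block were Chsy1 and Xylt2, with log2 differences of 0.31 each, and Xylt1, with -0.54 (limma adjusted p without the block 0.135, 0.109 and 0.112). Chst15, which adds a second sulfate to chondroitin sulfate A units, fell from 1542 ± 326 to 414 ± 79.7 normalized reads (log2 -1.89, standard error 0.18, limma adjusted p = 0.0039). Chst11, which sulfates chondroitin at the 4-O position, rose from 782 ± 51.4 to 1430 ± 316 (log2 0.85, standard error 0.15, limma adjusted p = 0.0242). The Chst11 call was lost without control replicate 1 or 3 and without dMF1/2 replicate 1 or 3, with limma adjusted p-values from 0.0564 to 0.0814.

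In the remaining 4 lists, limma called 0 genes between the genotypes at either day. They were the other hyaluronan receptors (4 tested at P16, 0 with an unadjusted p below 0.05), lysosomal glycosidases (4, 0), enzymes that supply UDP-sugars (7, 0) and proteins that link CD44 to actin (4, 0). Of their more abundant members, Ugdh, which makes UDP-glucuronic acid, had a log2 difference of 0.15 (standard error 0.09) at P16, Hexa of -0.13 (0.10), Msn (moesin) of -0.08 (0.09) and Layn (layilin) of 0.00 (0.21).

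**Figure D4:**
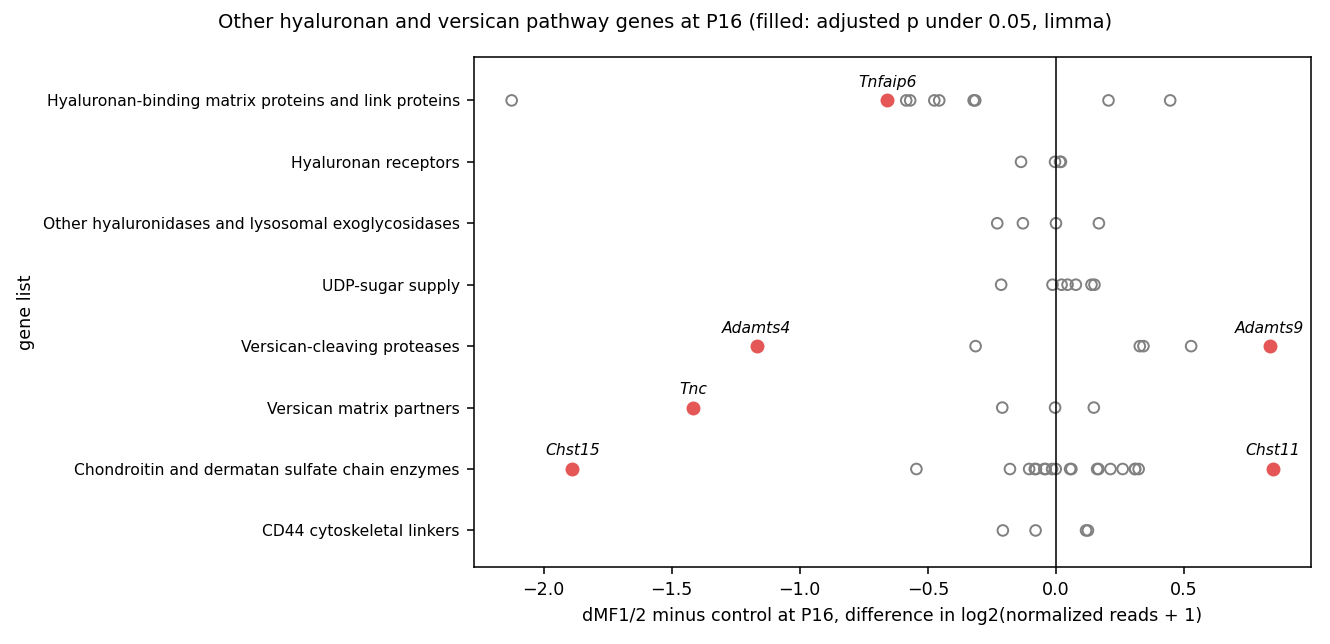
Difference in log2(normalized reads + 1) between dMF1/2 and control mice at P16 (horizontal axis) for the 59 tested genes of 8 hyaluronan and versican lists (rows), with 1 point a gene and filled points for a limma adjusted p below 0.05. Of the 6 filled points, Chst15, Tnc, Adamts4 and Tnfaip6 lie between -1.89 and -0.66, and Adamts9 and Chst11 lie at 0.84 and 0.85.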

How the data were processed

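RNA was sequenced from YFP-sorted DP cells of 12 mice. The authors trimmed reads with Trimmomatic, aligned them to mm10 with TopHat2 (version 2), counted them per gene (GRCm38.p4) with HTSeq-count and divided the counts by DESeq2 size factors, computed separately for each day. The kit was directional, and the strand setting of the counting is not given in the sources used here. The deposited values are this normalized signal, from which whole reads were recovered for 100% of values (tolerance 0.001 reads). Depth is therefore known over the deposited genes only, at 19302358 to 29860750 reads per library. The deposited tables also hold the authors' own fold changes and p-values, which were not used.

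Genotypes were compared within a day on the deposited scale with limma 3.58.1 (R 4.3.3, mean-variance trend) on log2(value + 1), keeping genes whose mean reached 10, with Benjamini-Hochberg adjustment over all genes and a threshold of 0.05. A pseudocount of 1 understates changes of genes with few reads. To compare days, the whole reads of the 14986 genes present in both tables were put on 1 scale with median-of-ratios size factors, and the 4 groups entered a single model. The 5 comparisons were repeated on the reads with edgeR 4.0.16 (quasi-likelihood) and DESeq2 1.42.0, with TMM scaling, pseudocounts of 0.1 and 10, no filter, the replicate number as a block, other sets of libraries, and each library left out. The functions were tested on simulated data. Same-numbered libraries deviated together within a day (correlation of deviations from the group means over 13415 genes 0.57, 0.38 and 0.29 at P14 and 0.27, 0.28 and 0.32 at P16), with letters in the descriptions shared between genotypes. What the numbers mark is not stated. P-values measure the spread between 3 mice a group. Counts of a gene and an overlapping gene may not be separable. Exon lengths came from GENCODE annotation of GRCm38.

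The members, the pathway and marker lists and the 4 motifs were chosen with earlier results of these data known. Named genes were the 9 members, every listed gene that passed the threshold in a genotype comparison, examples among the 3 most abundant of each list without a call, and the 5 genes most like Cemip and like Vcan. Itih5 was also named for its call between days in control mice, where not every listed gene called was named. Alternatives that left out both P14 libraries numbered 1 were chosen after seeing the data.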

Additional observations from a re-analysis of the deposited data

How the results depend on the processing

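The P14 genotype comparison called 7 genes in limma, 11 in the joint fit of 12 libraries, 207 in DESeq2 and 224 with the replicate block, and 0 to 18 when 1 library was left out (18 without P14 control replicate 2). Members called there were 0, but 2 in DESeq2 and 1 with the block, and genes of the 8 lists were 0, but 2 and 4. At P16, 582 genes became 1123 in DESeq2 and 1403 with the block, and 149 (without dMF1/2 replicate 3) to 684 without 1 library. There the members called were 2, with 3 in DESeq2 and 3 with the block, 1 in the joint fit and 1 to 2 without 1 library, and the list genes were 6, with 10 under the block and 3 to 7 without 1 library. Between days in control mice, 1951 calls became 806 in the fit of the 6 control libraries and 693 (without P16 control replicate 1) to 1945 without 1 library, and 2 members (Cemip and Has1) became 3 in DESeq2 (Tmem2, Has1 and Vcan, with Cemip lost), 3 with TMM scaling and with the block, 1 in edgeR (Has1), 0 in the fit of 6 libraries and 0 to 3 without 1 library. In dMF1/2 mice, 778 calls became 1341 in DESeq2, 322 in the fit of 6 libraries and 257 (without P16 dMF1/2 replicate 1) to 678 without 1 library, and 0 members became 1 in the fit of 6. The interaction called 0 genes, 7 in DESeq2, 2 without both P14 libraries numbered 1 and 0 to 2 without 1 library. Among the members, the replicate block added the calls of Tmem2 at P16 and of Vcan at P14 and between days in control mice, and changed no other. Between those days, same-numbered libraries did not deviate together. The cause of these shifts was not tested, apart from the fewer libraries in some fits.

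Several log2 differences that were not called changed sign when 1 library was left out. At P14 they ranged from -0.39 to 0.029 for Tmem2, -0.52 to 0.097 for Has1, -0.063 to 0.52 for Has2, -0.12 to 0.21 for Hyal2, -0.31 to 0.00156 for Cd44 and -0.041 to 0.26 for Chst11. Between days they ranged from -0.067 to 0.52 for Has2 and -0.067 to 0.14 for Hyal1 in control mice, and from -0.39 to 0.069 for Tmem2 and -0.14 to 0.18 for Has2 in dMF1/2 mice. At P16 they ranged from -0.13 to 0.19 for Has2, -0.09 to 0.24 for Has3, -0.19 to 0.18 for Hyal1 and -0.016 to 0.12 for Hyal2. The P16 minus P14 genotype difference of Cemip ranged from -1.68 to 0.23. Cemip at P14 rests on 7 to 18 reads in dMF1/2 libraries, so the size of its fold is known only roughly.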
